A study of Mus musculus with 4 samples.

Results

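The 10 genes described here encode proteins that bring glucose into a cell, break it down to pyruvate and lactate, or store and release it as glycogen: Slc2a1, Pfkfb3, Aldoa, Aldoc, Eno1, Pkm, Ldha, Ldhb, Ppp1r3c and Pygb. They are 10 of 21631 protein-coding genes with a span in RefSeq's annotation of GRCm38.p6, whose coordinates are those of mm10. A SOX2 peak was counted at a gene when its centre lay inside the gene span or within 50 kb of either end, which gave 100 of 51249 peaks. These were 32 of 17730 peaks in IP library 1, 35 of 17628 in IP library 2 and 33 of 15891 in IP library 3.

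SOX2 ChIP-seq was carried out on the cortex of male wild-type C57BL/6 mice aged 2 months. ChIP-seq (chromatin immunoprecipitation followed by sequencing) enriches the DNA fragments that an antibody against the protein recovers, and sets them against unselected chromatin, the input. There were 3 immunoprecipitated (IP) libraries and 1 input library, all of this one genotype and age, without an injured or a SOX2-deficient group among them. The label of a transduced factor reads SOX2 for each of the 4 samples, the input among them, which does not match wild-type tissue. Nothing in the labels ties each IP library to its own animal, and their spread may therefore be technical. The cortex was taken whole, so a peak cannot be assigned to one of its cell types, and fewer cells with a peak cannot be told apart from weaker binding per cell. A region found in every IP library lay within 50 kb of 8 of 8 astrocyte, 4 of 8 neuron, 3 of 6 oligodendrocyte, 3 of 6 microglia and 3 of 5 endothelial marker genes, beside 46.6% of all protein-coding genes. These counts are a description and do not test which cells the chromatin came from. The libraries held 36330529, 32492927 and 41875666 tags (sequenced reads placed on the genome).

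Glycolysis splits glucose in the cytosol into pyruvate, which lactate dehydrogenase can turn into lactate. In the brain this pathway is prominent in astrocytes, which also hold nearly all of the brain's glycogen and can pass lactate to neurons. SOX2 is a transcription factor with an HMG box, known for its role in neural stem cells and also made by astrocytes.

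Overlapping peaks (1 bp or more) formed one region, and a region with peaks of all 3 IP libraries is called reproducible. The strength of a peak is its number of normalized tags, the authors' value, which scales each library to 10000000 tags. At 8 of the 10 genes there was at least 1 reproducible region within 50 kb, beside 46.6% of all protein-coding genes. Of the 46 regions at these genes, 22 were reproducible, 10 were seen in 2 libraries and 14 in 1 library. Thus 47.8% were reproducible, beside 34.5% of all 27083 regions. At 5 genes (Slc2a1, Aldoc, Eno1, Ppp1r3c and Pygb) there were 3 or more reproducible regions, a count reached by 8.98% of protein-coding genes. No reproducible region lay near either lactate dehydrogenase gene. These counts are descriptions and were not tested.

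Promoters of 4 of the 10 genes were overlapped by a reproducible region, beside 8.39% of the protein-coding genes in the RefSeq promoter table, where all 10 genes were found. A promoter window here runs from 250 bases before to 50 bases after an annotated transcription start. A gene can have several windows. Counted by window, 6 of the 18 windows of the 10 genes were overlapped, beside 1591 of 21045 windows of protein-coding genes. The 4 genes were Pfkfb3, Aldoa, Aldoc and Pkm. At Pfkfb3 and Aldoa these were windows of inner starts, which lie inside the gene span, at Aldoc of both starts and at Pkm of the outer one. The 250 bases before the start are printed below for Pkm, for the inner starts of Aldoc and Pfkfb3, and for Pygb, because in these windows peaks of several libraries lie on the same bases (an inner window of Aldoa, which holds 67 such bases, is not printed). Capitals mark the bases covered by peaks of all 3 libraries, and at Pygb those covered by the peaks of IP libraries 1 and 3, the only libraries with a peak there. Sequences are from RefSeq, GRCm38.p6, 5′ to 3′ on the strand of the gene.
Pkm, chr9:59656326-59656575, plus strand: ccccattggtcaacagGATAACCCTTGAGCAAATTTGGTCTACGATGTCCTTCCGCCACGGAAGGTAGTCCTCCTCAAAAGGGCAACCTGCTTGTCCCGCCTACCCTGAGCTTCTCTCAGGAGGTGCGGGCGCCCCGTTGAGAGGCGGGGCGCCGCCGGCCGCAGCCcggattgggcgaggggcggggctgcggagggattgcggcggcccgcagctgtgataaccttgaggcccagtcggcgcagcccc
Aldoc inner start, chr11:78323948-78324197, plus strand: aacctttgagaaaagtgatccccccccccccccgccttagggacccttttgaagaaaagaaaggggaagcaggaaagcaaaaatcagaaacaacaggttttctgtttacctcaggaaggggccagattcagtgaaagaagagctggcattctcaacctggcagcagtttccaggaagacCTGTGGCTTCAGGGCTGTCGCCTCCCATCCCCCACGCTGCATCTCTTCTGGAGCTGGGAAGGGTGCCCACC
Pfkfb3 inner start, chr2:11502091-11502340, minus strand: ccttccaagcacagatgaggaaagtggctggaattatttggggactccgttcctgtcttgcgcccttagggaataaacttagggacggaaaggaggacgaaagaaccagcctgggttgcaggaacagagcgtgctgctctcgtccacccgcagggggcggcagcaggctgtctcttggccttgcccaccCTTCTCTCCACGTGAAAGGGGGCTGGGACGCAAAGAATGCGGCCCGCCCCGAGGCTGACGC
Pygb, chr2:150786546-150786795, plus strand: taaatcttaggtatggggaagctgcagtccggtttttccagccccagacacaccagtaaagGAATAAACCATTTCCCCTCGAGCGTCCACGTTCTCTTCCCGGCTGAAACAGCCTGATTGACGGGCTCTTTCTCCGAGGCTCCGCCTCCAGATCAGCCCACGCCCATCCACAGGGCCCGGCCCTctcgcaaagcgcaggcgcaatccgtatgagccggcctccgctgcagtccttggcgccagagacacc
At Pkm the capitals cover 151 of the 250 bases and stop short of the start. They cover the 71 bases that end at the inner start of Aldoc and the 61 that end at that of Pfkfb3, and at Pygb 123 bases were covered by the 2 libraries.

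Both strands of these 250 bases were searched for the core SOX motif, spelled ACAAAG or, in its other form, as ACAATG. The octamer of POU factors, ATGCAAAT, was searched in the same way and contains neither of those. None of the 4 printed windows holds any of them, which says only that these letters are not in those windows. Of all 18 windows of the 10 genes, 2 hold a SOX core, which are the outermost window of Eno1 (ACAAAG) and the window of Ldhb (ACAATG). Neither was on a reproducible region. The octamer was in 1 window, that of the outer start of Pfkfb3. Over all 21045 windows of protein-coding genes, ACAAAG was in 15.0%, ACAATG in 8.84%, either in 22.3% and the octamer in 1.59%. Among the 1591 windows on a reproducible region, 25.6% held ACAAAG or ACAATG. These windows were also richer in G and C, with a median of 59.6% against 54.4% in the 16800 windows on no peak. The 6 windows of the studied genes that lay on a reproducible region had 54.0% to 67.6% G and C. Only promoter windows were searched, and the sequence of regions elsewhere was not used here.

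**Figure D1:**
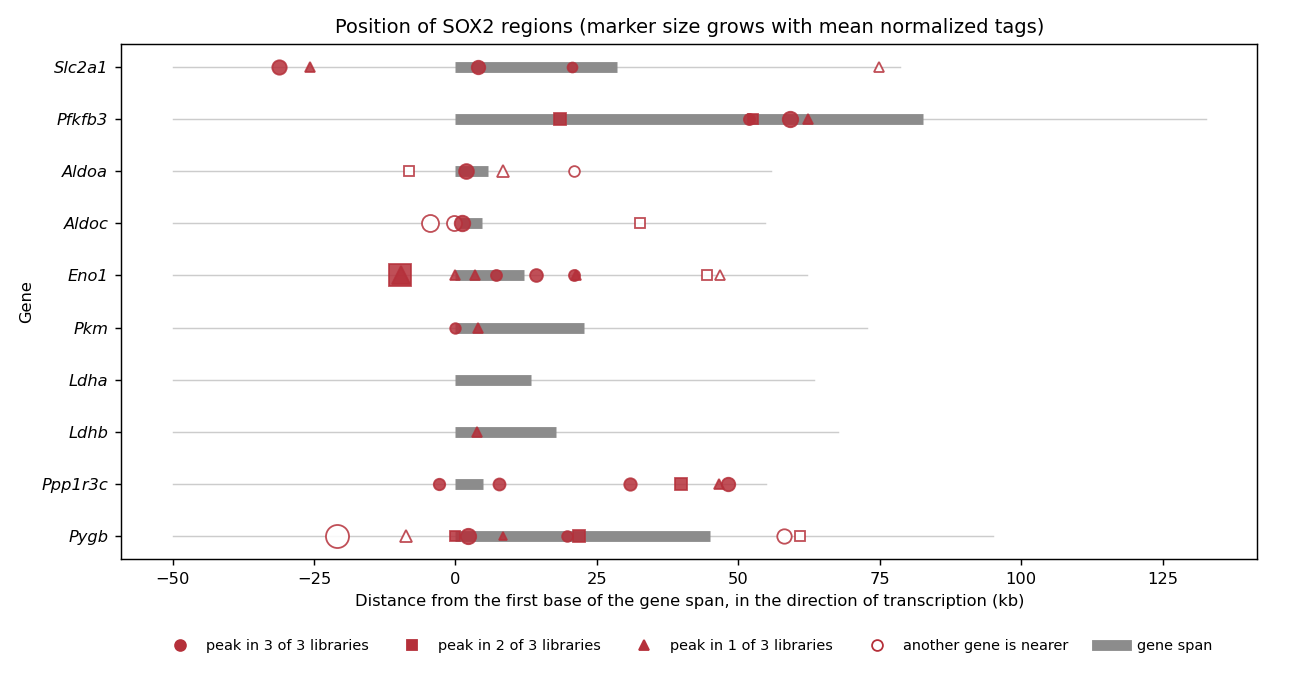
Position of every SOX2 region at the 10 genes, in kb from the first base of the gene span in the direction of transcription. Circles are regions with peaks in 3 libraries, squares in 2 and triangles in 1, open symbols have another protein-coding gene nearer, and marker size grows with mean normalized tags. Of the 22 reproducible regions, 9 lie inside a gene, 6 upstream and 7 downstream, and Ldha has no marker.

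Glucose enters the brain largely through GLUT1, the transporter encoded by Slc2a1 on chromosome 4 from 119108745 to 119137330. This gene had 3 reproducible regions, and it was the nearest protein-coding gene to all of them. The strongest, from 119077436 to 119077623, lay 31.2 kb upstream and held 10.2, 8.31 and 8.60 normalized tags in IP libraries 1, 2 and 3 (9.04 ± 1.02, mean and SD, n = 3). It also lay inside Gm35510, a gene not annotated as protein-coding. The second, inside the gene and 3.94 kb after its start, held 11.0, 7.69 and 5.73 (8.14 ± 2.66). There IP library 1 was the highest and IP library 3 the lowest. The last region, 20.6 kb after the start, held 4.68, 4.31 and 4.54 (4.51 ± 0.187). It was among the weakest reproducible regions of the genome, at percentile 2.83 of all 9334. A peak 46.3 kb downstream, inside Ermap, was found in IP library 3 alone with 4.54 normalized tags. The window at the start of Slc2a1 held no peak in any library.

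Pfkfb3 encodes an enzyme that makes fructose 2,6-bisphosphate, the activator of phosphofructokinase. The gene spans chromosome 2 from 11471430 to 11554071 on the minus strand, and all 5 of its regions lay inside it. The strongest, from 11494927 to 11495101, held 9.36, 9.54 and 11.5 normalized tags (10.1 ± 1.19, n = 3), with the highest value in IP library 3. The other reproducible region, from 11501999 to 11502240, sat on the inner start printed above, and its centre lay just before that start. It held 5.78, 5.85 and 5.73 (5.79 ± 0.0603), the smallest spread of the 22 regions. This region also overlapped a window of Gm52500. A region 18.3 kb after the outer start was found in IP library 1 with 8.81 and in IP library 3 with 6.21, and had no peak in IP library 2. The first region beyond the 50 kb limit, 79.5 kb from the span, was reproducible, with 25.9, 25.2 and 22.9 normalized tags, all above every value within the limit.

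Aldolase cleaves fructose 1,6-bisphosphate, and its C form, encoded by Aldoc, is the form typical of brain and a known marker of astrocytes. Aldoc, on chromosome 11 from 78323073 to 78327781, had 3 reproducible regions close together. The strongest, from 78318441 to 78318656, lay 4.52 kb upstream and held 11.6, 14.5 and 8.84 normalized tags (11.6 ± 2.83, n = 3). It was inside the neighbouring gene Spag5, which encodes a protein of the mitotic spindle. A second region, from 78322663 to 78322840, lay 0.322 kb upstream and held 9.91, 10.2 and 8.84 (9.65 ± 0.716). Spag5 was slightly nearer to it, at 0.295 kb, and the peaks of IP libraries 2 and 3 reached into the window of the outer Aldoc start. The third, from 78324116 to 78324279, was centred on the inner start and held 12.7, 9.85 and 8.12 (10.2 ± 2.31). These 3 regions held similar numbers of IP tags, and their values overlapped between regions. The enrichment over the input differed more. It was 5.44-fold, 6.69-fold and 4.85-fold at the region just upstream of the start, where the input held 6.0, 4.9 and 6.0 tags. It was 41.7-fold, 64.9-fold and 26.7-fold at the inner start, where the input held 1.0, 0.5 and 1.0 tags, the 0.5 being the authors' floor. The same input library stood behind all 3 values at each place, so they are not independent.

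The A form of aldolase, encoded by Aldoa, is the widespread form. Aldoa, on chromosome 7 from 126795234 to 126800994 on the minus strand, had 2 reproducible regions. The stronger, from 126799093 to 126799308, overlapped the windows of both inner starts and held 10.2, 9.23 and 9.07 normalized tags (9.50 ± 0.611, n = 3). The weaker, from 126779913 to 126780156, was 15.2 kb downstream with 5.78, 5.54 and 4.78 (5.37 ± 0.522), inside Ypel3. No peak lay on the window of the outermost start. A peak of IP library 2 alone, with 6.16, lay inside Ppp4c, and a region of IP libraries 1 and 3, with 3.58 and 5.25, lay nearer to Tlcd3b than to Aldoa. The aldolase genes thus both had a reproducible region on an inner start, with 10.2 ± 2.31 normalized tags at Aldoc and 9.50 ± 0.611 at Aldoa. These values overlapped between libraries.

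Enolase 1, encoded by Eno1, makes phosphoenolpyruvate. The gene lies on chromosome 4 from 150236708 to 150248879 and had 10 regions, 3 of them reproducible. A region inside the gene, from 150243822 to 150244035, held 6.88, 5.54 and 4.54 normalized tags (5.65 ± 1.17, n = 3). Another, 2.01 kb past its end, held 6.61, 7.69 and 8.12 (7.47 ± 0.778), and the last, 8.71 kb past it, held 6.61, 5.23 and 5.25 (5.70 ± 0.791). Gm33415, not annotated as protein-coding, was nearer to that last region, at 1.62 kb. The strongest signal at Eno1 was not among these reproducible regions. It lay 9.82 kb upstream, from 150226807 to 150226968, with 17.1 normalized tags in IP library 1 and 14.6 in IP library 3. The peak of IP library 2, with 12.3, was placed from 150227082 to 150227234 and overlapped neither. When peaks whose ends lay within 200 bp were joined, a setting added once the data had been seen, this became the strongest Eno1 region with 14.7 normalized tags. In the window before the outermost start of Eno1 there was a peak in IP library 1 alone, with 4.40. The most distant regions, 32.3 kb and 34.6 kb downstream, lay nearer to or inside Rere.

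Pyruvate kinase, which makes pyruvate and ATP, is encoded in brain by Pkm, on chromosome 9 from 59656576 to 59679372. Its single reproducible region, from 59656336 to 59656494, lay within the 250 bases printed above, its centre 0.161 kb before the start. It held 4.95, 6.46 and 4.30 normalized tags (5.24 ± 1.11, n = 3), with peak scores of 17, 16 and 19. The score is the authors' value from peak calling, which capped the tags at one position, and the lowest they accepted was 14, 13 and 16. It is not simply the capped tag number of the peak, since the score of 19 in IP library 3 stood beside 18 recomputed tags. Against the input these tags made 5.44-fold in IP library 1, 7.10-fold in IP library 2 and 4.72-fold in IP library 3, where the authors required 4-fold. Pkm dropped out when peaks had to reach 8-fold or to belong to the stronger 0.5 of their library. A further peak inside the gene was found in IP library 2 alone, with 4.92.

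Lactate dehydrogenase is built from an A subunit, encoded by Ldha, and a B subunit, encoded by Ldhb. Ldha, on chromosome 7 from 46842274 to 46855627, had no peak of any library inside it or within 50 kb, beside 71.8% of protein-coding genes that had one. The nearest region lay 64.3 kb away, with 6.06 and 8.93 normalized tags in IP libraries 1 and 2, and the nearest reproducible one 333 kb away. Ldhb, on chromosome 6 from 142490249 to 142507957, had 1 peak, inside the gene, in IP library 2 alone. It held 4.31 normalized tags, and its score of 13 was the lowest accepted in that library. The nearest reproducible region was 145 kb from Ldhb. A binding site too weak for the authors' calling minimums was not detectable at this depth, so these counts do not show that SOX2 is absent from either gene.

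Glycogen is handled by the last pair of genes. Ppp1r3c encodes PTG, a subunit that brings protein phosphatase 1 to glycogen and favours its synthesis, and it lies on chromosome 19 from 36731731 to 36736604 on the minus strand. It had 4 reproducible regions, a number reached by 3.93% of protein-coding genes, and none was inside the gene. The nearest pair lay 2.98 kb upstream, with 6.61, 7.08 and 4.54 normalized tags (6.08 ± 1.35, n = 3), and 2.79 kb downstream, with 6.61, 7.39 and 5.97 (6.66 ± 0.711). Another lay 25.9 kb downstream with 7.98, 6.46 and 6.93 (7.12 ± 0.778). The input there was at the floor of 0.5 tags in all 3 tables, so its enrichment of 46.9 ± 5.13-fold, the highest of the 22 regions, depends on that floor. The last, 43.3 kb downstream, held 10.2, 8.31 and 5.97 (8.16 ± 2.12). Ppp1r3c was the nearest protein-coding gene to all 4, and the last lay inside Hectd2os, which is not annotated as protein-coding. Hectd2os, at 16.3 kb, was also nearer than Ppp1r3c to the region 25.9 kb downstream. A stronger reproducible region, with 12.4, 12.6 and 10.7 normalized tags, lay 53.6 kb away, just outside the limit.

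Pygb encodes the brain form of glycogen phosphorylase, which releases glucose units from glycogen. The gene, on chromosome 2 from 150786796 to 150831748, also had 4 reproducible regions, among them the strongest of all 22. That region, from 150765694 to 150765884, lay 21.0 kb upstream and held 20.1, 16.9 and 16.2 normalized tags (17.7 ± 2.08, n = 3). It was inside Entpd6, a nucleotidase gene, so it belongs to Pygb only by distance. By tags it stood at percentile 94.0 of all reproducible regions. By enrichment over the input, 11.7 ± 1.36-fold, it stood at percentile 37.0, and the input held 5.0, 4.9 and 5.0 tags at the same place. Inside Pygb, a region 2.14 kb after the start held 9.63, 10.8 and 9.79 (10.1 ± 0.634). Another, 19.8 kb after it, held 6.61, 4.31 and 5.25 (5.39 ± 1.16). The fourth, 13.2 kb downstream and inside Abhd12, held 10.2, 8.62 and 8.36 (9.06 ± 0.996). In the 250 bases before the start, peaks of IP libraries 1 and 3 held 5.78 and 5.25, and IP library 2 had none. These peaks also touched a promoter window of Gm30141.

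**Figure D2:**
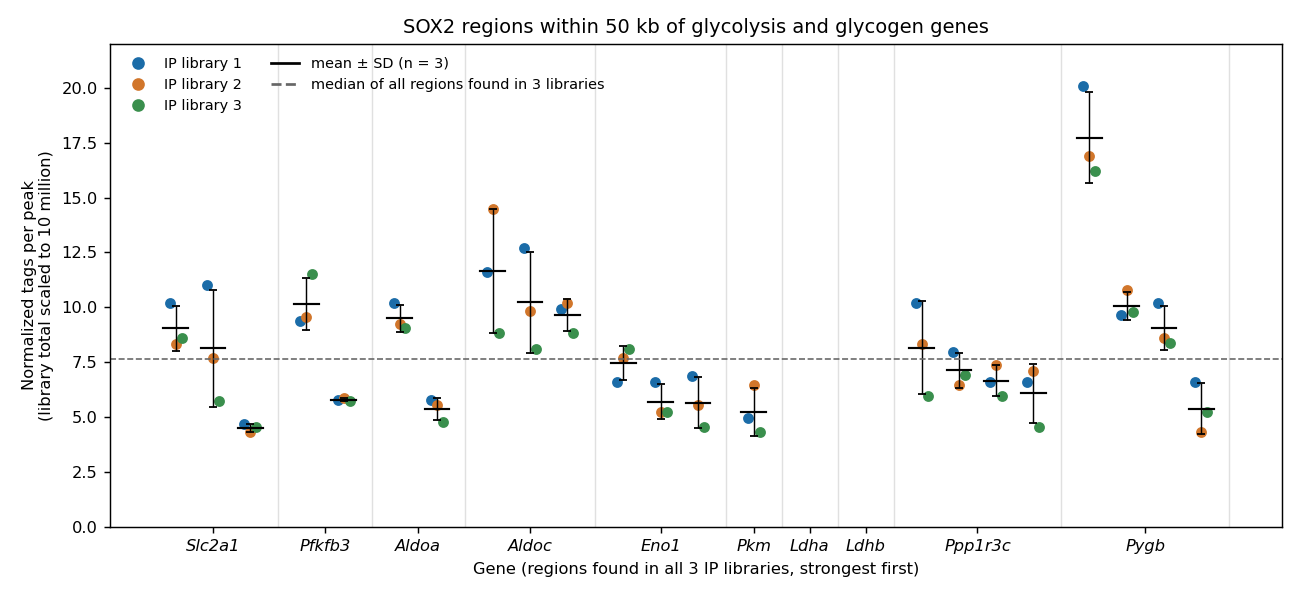
Normalized tags of the 22 reproducible regions in each IP library (points), with the mean and SD over the 3 libraries (bars), ordered by strength within each gene. The dashed line is the median of all 9334 reproducible regions, 7.63, and 11 of the 22 regions lie above it.

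Across the 22 regions, mean normalized tags ran from 4.51 to 17.7 with a median of 7.81, beside 7.63 over all reproducible regions. Only 1 of them, the region upstream of Pygb, was in the highest decile. Median enrichment over the input was 11.5-fold, beside 15.3-fold over all reproducible regions. The strongest regions, in order, were at Pygb (17.7 ± 2.08), Aldoc (11.6 ± 2.83), Pfkfb3 (10.1 ± 1.19), Aldoa (9.50 ± 0.611), Slc2a1 (9.04 ± 1.02), Ppp1r3c (8.16 ± 2.12), Eno1 (7.47 ± 0.778) and Pkm (5.24 ± 1.11). This order depends on which regions are counted. With only regions that had no nearer protein-coding gene, Pygb held 10.1, Aldoc 10.2 and Pfkfb3 10.1. With peaks within 200 bp joined, Eno1 held 14.7, and without IP library 2 it held 15.9, below Pygb alone in both cases. In the order over all regions, the value at Pygb exceeded that at Aldoc in each library, the lowest of its values (16.2) being above the highest at Aldoc (14.5). From Aldoc down to Eno1, neighbours in this order overlapped between libraries. The values at Eno1 (6.61 to 8.12) lay above those at Pkm (4.30 to 6.46).

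The SD between libraries ran from 1.04% of the mean, at the inner start of Pfkfb3, to 32.7%, at the region inside Slc2a1 with 11.0, 7.69 and 5.73. It was 11.5% at the median region, beside 17.3% over all reproducible regions. Each value rests on 14 to 73 tags. Exact 95% Poisson intervals, which cover counting error only, shared a common range across the 3 libraries in 22 of 22 regions. They are wide at such counts: at that Slc2a1 region they were 7.87 to 15.0, 4.98 to 11.4 and 3.67 to 8.53 normalized tags. The same share over all reproducible regions was not computed, so the count does not show close agreement between libraries. IP library 3 was the lowest of the libraries in 14 of the 22 regions, and over all reproducible regions it was lowest in 60.1%. The authors' IP efficiency, the approximate share of tags in peaks, was 1.36%, 1.35% and 1.06% in IP libraries 1, 2 and 3. A link between these values was not tested. Regions found in 1 library held 3.34 to 12.3 normalized tags and those of 2 libraries 4.15 to 15.9, the highest of both being the Eno1 peaks described above. The median was 4.58 in regions of 1 library and 5.39 in those of 2.

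**Figure D3:**
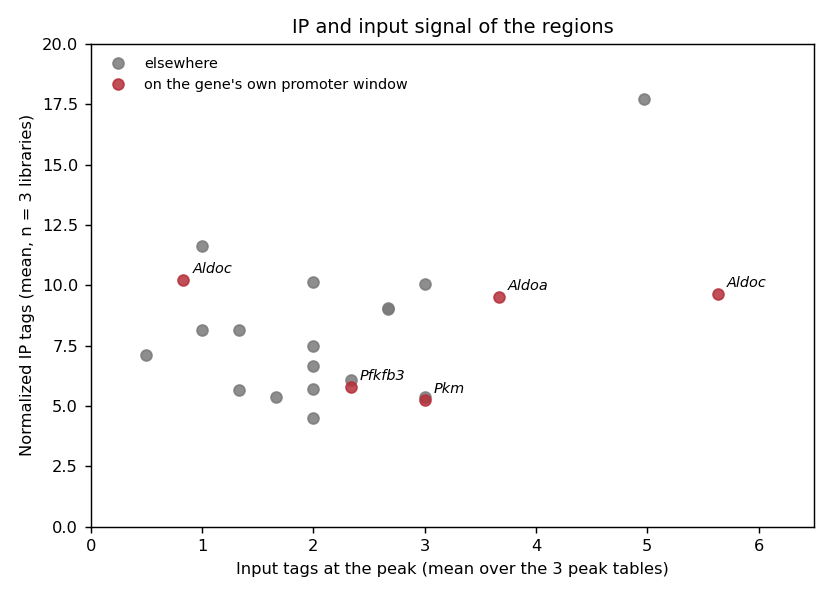
Mean normalized IP tags of the 22 reproducible regions (vertical axis) against the input tags at the same peaks, averaged over the 3 tables (horizontal axis). Red points lie on a promoter window of the gene, and the pair at Aldoc stands at 0.833 and 5.63 input tags with similar IP tags.

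The 5 regions on a promoter window (Pkm, Aldoa, Pfkfb3 and the 2 of Aldoc) had a median enrichment of 8.48-fold and a median of 3.0 input tags. The other 17 had a median of 11.7-fold and 2.0 input tags. Over all reproducible regions, those on a promoter window of a protein-coding gene had a median of 13.1-fold (1337 regions) and the others of 15.6-fold (7996 regions), with a median of 2.0 input tags in both.

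For 17 of the 22 regions, the member was the nearest protein-coding gene or contained the region. The exceptions were the strongest regions of Aldoc and Pygb, the Aldoc region nearer to Spag5, the Pygb region inside Abhd12 and the Aldoa region inside Ypel3. Among the 17, a gene not annotated as protein-coding was nearer at regions of Slc2a1, Ppp1r3c and Eno1. Counting only regions with no nearer protein-coding gene, the same 8 genes had a reproducible region, beside 22.9% of protein-coding genes. Within 10 kb it was again these 8, beside 26.4%. Inside the span there were 6, without Pkm and Ppp1r3c, beside 14.8%.

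The rest of the pathway was described by 58 further genes, all of which matched the gene table. Of these, 31 had a reproducible region within 50 kb (53.4%, beside 46.6% of protein-coding genes). Such a region lay inside 7 of them (beside 14.8%), and 16 were the nearest protein-coding gene to one (beside 22.9%). A promoter window was overlapped at 3 of the 58, beside 8.39% of the protein-coding genes in the promoter table. A gene absent from that table counted as not overlapped. The 31 genes with a region were 15 of 31 genes of glycolysis, glucose and lactate transport and its control, and 16 of 27 genes of glycogen. The strongest region per gene had a median of 8.08 normalized tags, beside 9.27 at the 8 studied genes and 8.56 over all protein-coding genes with a region. Such a maximum tends to rise with the number of regions, whose median was 1 at the 58 genes and 2.5 at the 10 studied genes. Without the regions nearer to another protein-coding gene, the 16 genes left were 5 of the 31 glycolysis genes and 11 of the 27 glycogen genes. The share over all protein-coding genes under this rule was the 22.9% given above, and the split was not tested.

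Gaa, which encodes the lysosomal enzyme that degrades glycogen, had the strongest of these regions, with 24.2, 28.9 and 19.1 normalized tags (24.1 ± 4.90, n = 3), but Eif4a3 was nearer. Pfkm, which encodes the muscle form of phosphofructokinase, followed with 25, 22.5 and 23.6 (23.7 ± 1.25) at a region 2.33 kb outside it and nearer to Asb8. The region of Ppp1r3g, a glycogen-targeting subunit like Ppp1r3c, held 22.6, 16.6 and 14.8 (18.0 ± 4.08) and was nearer to Lyrm4. Phosphorylase kinase, the enzyme that activates glycogen phosphorylase, had regions inside the genes of its subunits Phkb (13.7 ± 1.80) and Phka1 (12.0 ± 2.66). Its other listed subunit genes differed. Phka2 had no peak of any library within 50 kb, and the region of Phkg1, 29.3 kb outside it, was nearer to Zbed5. Phkg2 held 4.50 ± 0.801, at percentile 2.80 of all reproducible regions. Pfkfb2, a relative of Pfkfb3, had 12.7, 15.1 and 9.07 (12.3 ± 3.04) at a region inside the gene and also inside Yod1. Pdk2, a kinase that inhibits pyruvate dehydrogenase, had 12.4 ± 3.39 at a region nearer to Sgca. Ugp2, which makes the UDP-glucose used for glycogen, had 11.0 ± 3.46 at 3.02 kb outside it and was the nearest protein-coding gene. A peak of any library was found within 50 kb of 49 of the 58 genes, beside 71.8% of protein-coding genes.

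**Figure D4:**
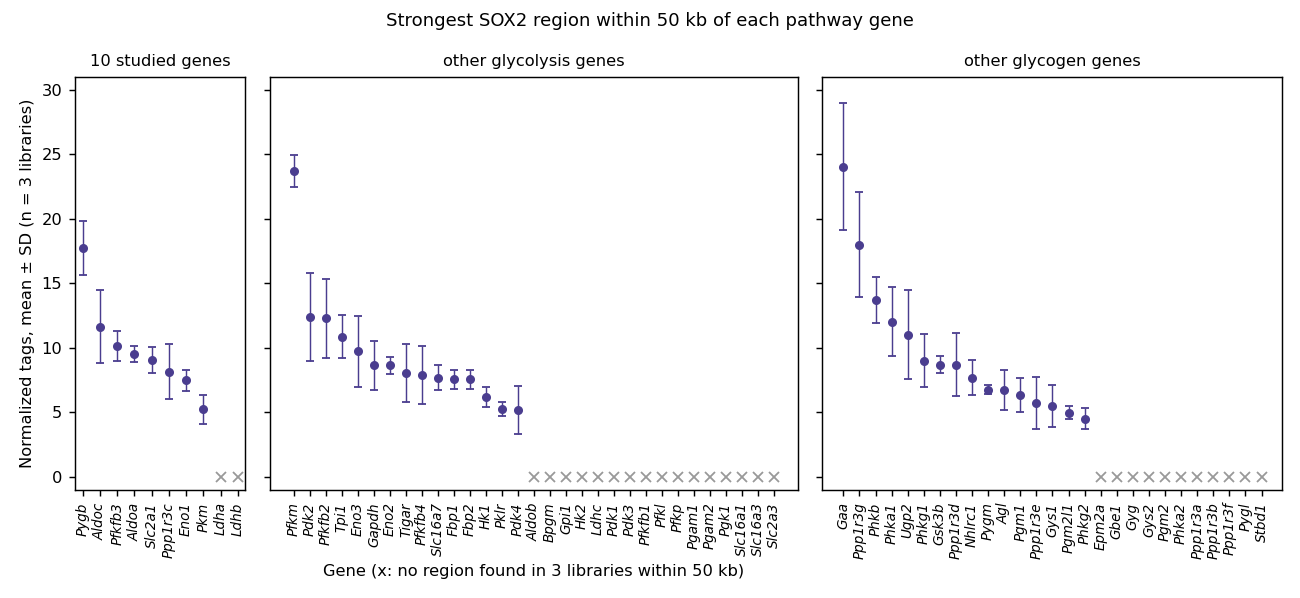
Strongest reproducible region within 50 kb of each gene, as mean normalized tags with SD over 3 libraries. Panels from left to right show the 10 studied genes, 31 other glycolysis genes and 27 other glycogen genes, and a cross marks a gene with no such region. Pygb leads the studied genes at 17.7, below Pfkm (23.7) and Gaa (24.1) in the other panels.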

How the data were processed

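Tools named in the submitters' processing notes are Bowtie 1.0.0 and HOMER 4.7, with mm10 as the build. Each IP library had its peaks called on its own by the authors, with findPeaks of HOMER in factor mode against the input, per the file headers. A peak needed 4-fold over the input and over the 10 kb around it, a false discovery rate of 0.001 and a Poisson p-value under 0.0001, per the file headers. The normalized tags are the authors' signal per peak, scaled to 10000000 tags. The fold is the deposited ratio of IP over input tags, where input values under 0.5 were raised to 0.5. Each fold used the same input library, so an SD of fold leaves out the counting error of the input. Input tags were scaled to the IP total in the table of IP library 2, while in the others the IP tags were scaled to the input. The deposited peak score comes from peak calling with a cap on tags per bp, which was 2 for IP library 3 and 1 for the others. It can exceed the recomputed tags of the same peak. The tags per peak were deposited as a whole count for IP library 2, and the deposited p-values and the focus ratio, a fraction, were not used for results.

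Chains of peaks sharing 1 bp or more made up a region, which takes its strongest peak in each library. Tags were recomputed from normalized tags times the library's depth, and fell within 1 of the deposited count for 100% of peaks in IP library 2. Distances run from the region's centre to the RefSeq span. Genes and regions on chromosome Y were left out of gene counts, and exons were not used here. With 1 group of IP libraries and 1 input, no test between groups was made. All 10 members are named, with nearer genes, the 8 other pathway genes of highest mean tags and the remaining listed subunit genes of phosphorylase kinase. The members and lists were chosen with earlier results of these data known. The code for merging and assignment was checked on simulated peaks. The planted peaks of a gene always overlapped, so separated peaks such as those at Eno1 were not covered. Alternatives changed the libraries used, overlap, threshold, distance and assignment. The software was Python 3.11.15 with pandas 2.3.3, numpy 2.4.6, matplotlib 3.10.9 and scipy 1.17.1.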

Additional observations from a re-analysis of the deposited data

How the results depend on the processing

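Leaving out each IP library in turn kept the same 8 genes and gave 24 to 27 reproducible regions. The other pathway genes with such a region were 32 to 35 of 58, beside 50.2% to 52.1% of protein-coding genes. The strongest regions of the studied genes had a median of 8.80 to 10.0 normalized tags. A region then needed peaks only in the libraries that remained, a looser rule than the main one. Under it a gene with a region found in every library could hardly be lost. The unchanged 8 genes therefore do not show that the result is stable. Without IP library 2 the strongest region of Eno1 held 15.9 instead of 7.47. With peaks of at least 8-fold there were 13 regions at 6 genes, without Aldoa and Pkm, and 19 other pathway genes, beside 32.9% of protein-coding genes. With the stronger 0.5 of peaks there were 14 regions at 7 genes, without Pkm, and 22 other pathway genes, beside 31.4%. Inside the span there were 9 regions and 7 other pathway genes (beside 14.8%). Of the other pathway genes there were 18 within 10 kb, beside 26.4% of protein-coding genes. With no other protein-coding gene nearer there were 16, beside 22.9% of protein-coding genes. Under the last 2 settings the strongest region of Pygb held 10.1 instead of 17.7. With peaks within 200 bp joined, Eno1 held 14.7. Ranked by fold over input in place of tags, the strongest region went from percentile 64.0 to 35.9 at Slc2a1, 71.9 to 54.7 at Pfkfb3, 67.6 to 24.8 at Aldoa, 56.0 to 75.7 at Ppp1r3c and 94.0 to 37.0 at Pygb. Ranked by peak score, Aldoa stood at 73.4. Sites with scores under the authors' minimums are not in the tables, and the part of depth in the regions of 1 or 2 libraries was not tested. No paired analysis was possible because only the IP group has replicates.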
